A study of Mus musculus with 7 samples.

Results

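The ETS, SoxF and GATA endothelial transcription factors are 10 genes, Erg, Fli1, Ets1, Ets2, Elk3, Sox7, Sox18, Tal1, Gata2 and Gata6, taken by gene symbol from 22180 genes with their own probe set on the array. All 10 were found, each with 1 probe set of exactly 1 gene symbol, and all 10 passed the filter that left 16635 genes for testing. RNA came from endothelial cells sorted from the lungs of C57BL/6 mouse embryos at E18.5, on 3 arrays labelled wild-type and 4 labelled Sash1-knockout, from littermates. The labelled knockout lacks both copies of Sash1 in the embryo as a whole, the sorted cells carried CD31 and lacked CD45 and CD326, and the labels name no other allele or treatment in either group. The study asks what loss of Sash1, a scaffold protein gene, does to lung endothelium, and here the question is whether its core transcription factors differed.

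ETS factors share a DNA-binding domain that reads a GGAA core, and promoters and enhancers of nearly all endothelial genes carry such sites. Erg and Fli1 keep mature endothelium in its identity, Ets1 and Ets2 respond to growth factor signalling through MAP kinases, and Elk3 acts mainly as a repressor until it is phosphorylated. Sox7 and Sox18 belong, with Sox17, to the SoxF group, which takes part in arterial and lymphatic specification. Tal1 is a basic helix-loop-helix factor of blood and endothelial precursors that works in one complex with GATA factors, and Gata2 and Gata6 are the GATA factors of endothelium, of which Gata2 is also required in lymphatic valves and Gata6 is active in lung epithelium and smooth muscle as well.

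Erg and Ets2 are neighbours on chromosome 16, and Fli1 and Ets1 on chromosome 9, with 0 protein-coding genes listed between the members of either pair in the RefSeq table of assembly GRCm38.p6. RefSeq promoter sequences of that assembly were matched for 5 of the 10 genes, with 9 start sites. The window printed is the 250 bases before a start, 5′ to 3′ on the gene's strand, and capitals mark the ETS core GGAA on either strand (TTCC on the printed strand is the same site read from the other side). Elk3 is shown because its values did not overlap between labels, the starts of Erg because they differ from each other in ETS cores, and the upstream start of Gata2 because this gene varied most.
Elk3 (chr10:93311160-93311409, minus strand): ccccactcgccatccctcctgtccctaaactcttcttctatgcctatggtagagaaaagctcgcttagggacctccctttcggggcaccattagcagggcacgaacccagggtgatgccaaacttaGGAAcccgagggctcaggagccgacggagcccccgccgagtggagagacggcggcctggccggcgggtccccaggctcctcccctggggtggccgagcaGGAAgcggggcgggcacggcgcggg
Erg, start 1, the most upstream (chr16:95586594-95586843, minus strand): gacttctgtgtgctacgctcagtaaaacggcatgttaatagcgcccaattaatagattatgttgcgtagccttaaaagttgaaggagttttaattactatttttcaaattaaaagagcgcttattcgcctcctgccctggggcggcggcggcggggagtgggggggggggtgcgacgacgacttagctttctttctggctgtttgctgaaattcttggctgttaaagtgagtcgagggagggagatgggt
Erg, start 2 (chr16:95530366-95530615, minus strand): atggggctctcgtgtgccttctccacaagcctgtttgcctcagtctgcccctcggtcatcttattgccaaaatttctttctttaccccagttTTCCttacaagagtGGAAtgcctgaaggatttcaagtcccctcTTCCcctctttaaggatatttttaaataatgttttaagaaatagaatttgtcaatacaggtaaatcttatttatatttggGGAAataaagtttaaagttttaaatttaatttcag
Erg, start 3 (chr16:95459349-95459598, minus strand): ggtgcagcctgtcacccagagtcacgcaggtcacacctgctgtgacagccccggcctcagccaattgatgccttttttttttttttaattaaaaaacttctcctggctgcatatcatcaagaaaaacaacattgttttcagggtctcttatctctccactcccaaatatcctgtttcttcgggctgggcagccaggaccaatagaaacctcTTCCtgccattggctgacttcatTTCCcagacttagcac
Gata2 (chr6:88193641-88193890, plus strand): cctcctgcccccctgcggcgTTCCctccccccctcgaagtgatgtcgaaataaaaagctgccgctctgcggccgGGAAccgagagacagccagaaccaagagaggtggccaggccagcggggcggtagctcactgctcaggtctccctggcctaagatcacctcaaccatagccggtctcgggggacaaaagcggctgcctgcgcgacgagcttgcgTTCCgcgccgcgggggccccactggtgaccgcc

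The window of Erg start 1 held 0 matches to GGAA, that of start 2 held 4 and that of start 3 held 2. The Elk3 window held 2 and that of Gata2 held 3. Of the 9 windows 8 held at least 1 match, against 93.4% of 32851 promoter windows of this length, a share near the background. The longer GGAAG, which contains the core, was in 4 of 9 windows against 64.1% of all. ACAAT, the core read by SOX factors, was in 1 of 9 (Erg start 3) against 27.7%, and GATAA, read by GATA factors, in 2 of 9 (Erg start 3 and the upstream start of Tal1) against 22.6%. Both strands were searched for each motif. These matches are letters in a window and not measured binding, and the array values do not distinguish the starts.

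The arrays were first set against their labels. Pecam1, which encodes CD31, lay between 11.03 and 11.21 on all 7 arrays (log2 signal after RMA, the scale of every level given here), and Cdh5, the endothelial cadherin gene, between 11.83 and 11.97. Below, W1 to W3 are the arrays labelled wild-type, numbered as in the labels, and K1 to K4 those labelled knockout. Sash1 measured 9.02, 8.73 and 8.33 on W1 to W3 and 8.29, 8.21, 8.68 and 8.13 on K1 to K4. W1, W2 and K3 were thus the 3 highest, and W3 lay near most knockout-labelled values. The difference between labels was -0.37 (95% confidence interval -0.83 to 0.10), -0.20 without W1 and -0.67 without both arrays numbered 3. That last fit was added with earlier results known. It leaves out W3 and K3, which crossed the labels for Sash1, so its larger difference had to follow. Which part of the gene was removed is not given in the labels, so a probe set outside that part would check nothing, and every direction given below rests on the labels. The samples came from littermates, but it is not given whether each was a separate embryo, or from which litter. The p-values then measure only the spread between these samples, which may be technical. Array signals from sorted populations cannot tell fewer cells of a type from less RNA per cell.

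**Figure D1:**
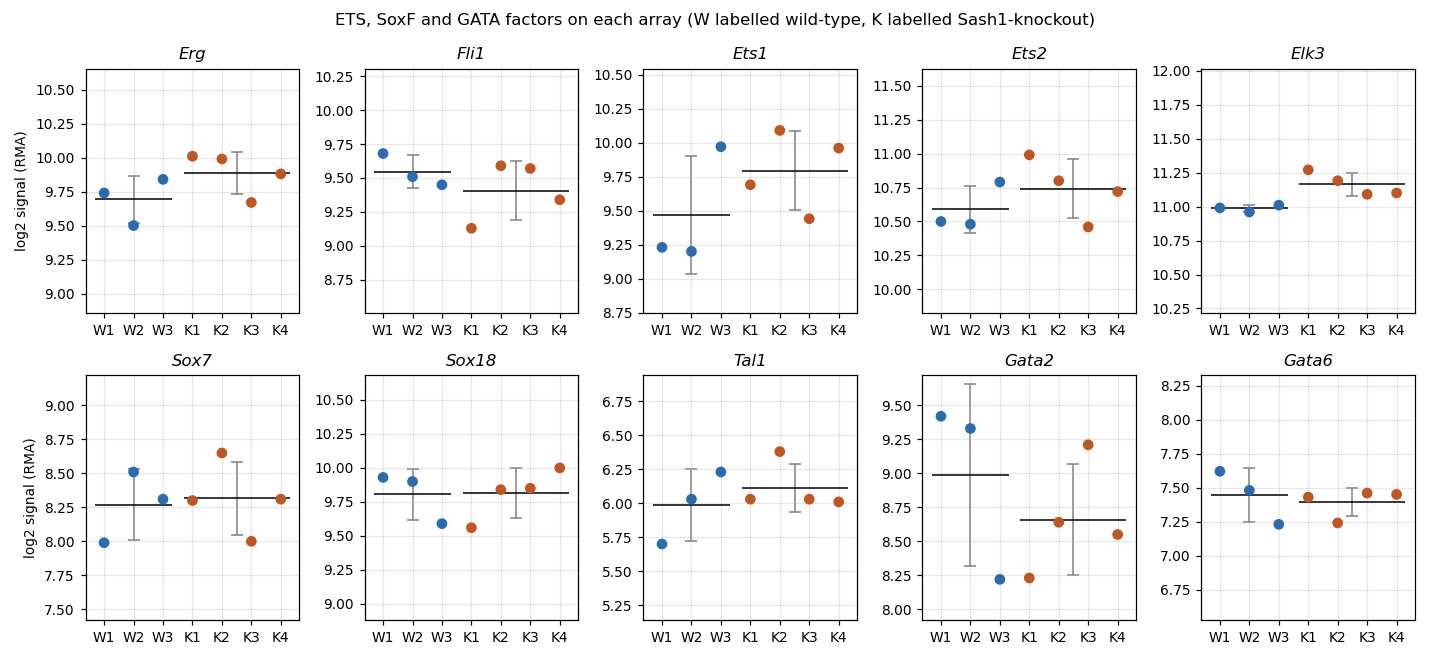
Log2 signal (RMA) of the 10 factors on each array, with arrays labelled wild-type (W1 to W3) in blue and labelled Sash1-knockout (K1 to K4) in orange. Black lines are group means, grey bars are SD, and every panel spans the same log2 distance. Elk3 is the gene whose labels do not overlap, and Gata2 spreads from 8.22 to 9.42.

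None of the 10 factors passed the test between labels. By limma's moderated test across 16635 genes, 0 of 10 had a Benjamini-Hochberg adjusted p under 0.05, where the share of all tested genes was 0%, and the adjusted p of the 10 ran from 0.971 to 1. At an unadjusted p under 0.05 there were 0 of 10, against 3.34% of all tested genes (556 genes). That count of factors was 1 (Elk3) in a robust fit with an intensity trend, where 506 of the 16635 genes were under that p. It was 1 (Elk3) with array weights, where 1310 of all genes were, and 2 (Ets1 and Gata2) without W3, where 1314 were. Without both arrays numbered 3, a fit added with earlier results known, it was 4 (Erg, Ets1, Ets2 and Gata2), where 1779 of all genes were under that p. For these 4 genes that fit leaves out the arrays that crossed the labels, so its count is no evidence of a difference. After adjustment 0 of the 10 passed in any of these fits. Labels did not overlap for 1 of 10, against 2.45% of all. Means were higher on the knockout-labelled arrays for 7 of 10 factors and lower for 3, against 53.9% higher over all genes. That background share depended on the scaling, at 68.6% when each array was centred on its median, where 8 of the 10 factors were higher. The median difference (knockout-labelled minus wild-type-labelled mean) over the 10 was 0.09 log2 units, against 0.02 over all genes tested. Differences of single factors ran from -0.33 for Gata2 to 0.33 for Ets1.

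Elk3, a ternary complex factor that partners with serum response factor, was the factor whose values did not overlap between labels. It measured 10.99, 10.96 and 11.01 on W1 to W3 and 11.27, 11.19, 11.09 and 11.10 on K1 to K4. All 4 knockout-labelled values lay above all 3 wild-type-labelled values, by at least the gap between 11.01 and 11.09. The means were 10.99 ± 0.03 (SD, n = 3) and 11.16 ± 0.08 (SD, n = 4), a difference of 0.18 (SE 0.08, 95% confidence interval -0.02 to 0.37), which puts K1 to K4 at 113% of the mean level of W1 to W3. Elk3 did not pass in limma, with an adjusted p of 0.971. Over the fits with 1 array left out its difference stayed between 0.14 and 0.20, a narrower range than for the other 9 factors. Its full range over 7 arrays, 0.31, was also the smallest of the 10, and 86.5% of all tested genes ranged at least as widely.

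Erg, the ETS factor most tied to endothelial identity, measured 9.74, 9.50 and 9.84 on W1 to W3 and 10.01, 9.99, 9.67 and 9.88 on K1 to K4. The labels overlapped, since K3 lay below W1 and W3. The difference was 0.19 (SE 0.13, 95% confidence interval -0.10 to 0.49; limma adjusted p = 0.971), and it was 0.10 without W2. Fli1, its closest relative in the family, measured 9.68, 9.51 and 9.45 against 9.13, 9.59, 9.57 and 9.34. K1 was lowest for Fli1 and highest for Erg, so this array placed the pair at opposite ends. Fli1 differed by -0.14 (95% confidence interval -0.46 to 0.18; limma adjusted p = 0.971), by -0.07 without W1 and by -0.05 without K1.

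Ets1 had the largest positive difference. Its values were 9.23, 9.20 and 9.97 on W1 to W3 and 9.69, 10.09, 9.44 and 9.96 on K1 to K4. W3 lay above 3 of the 4 knockout-labelled arrays, while W1 and W2 lay below all 4. The difference was 0.33 (SE 0.24, 95% confidence interval -0.23 to 0.89; limma adjusted p = 0.971), and single arrays moved it from 0.20 without W2 and 0.21 without W1 to 0.58 without W3.

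Ets2 measured 10.50, 10.48 and 10.79 against 10.99, 10.80, 10.46 and 10.72. K3 was the lowest array and K1 the highest, so the extremes of this gene both carried the same label. Ets2 differed by 0.15 (95% confidence interval -0.19 to 0.50; limma adjusted p = 0.971). Leaving out K1 gave 0.07, leaving out W2 gave 0.10, and leaving out W3 or K3 gave 0.25.

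**Figure D2:**
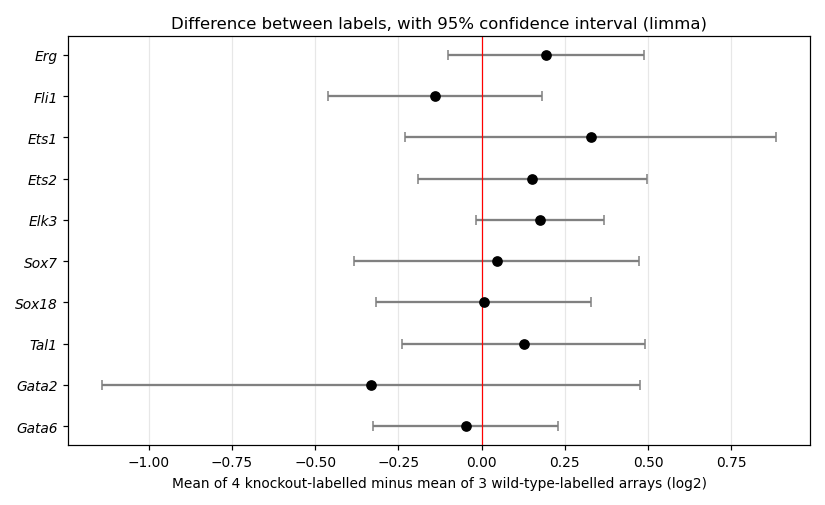
Difference of each factor (mean of 4 knockout-labelled minus mean of 3 wild-type-labelled arrays, log2) with its 95% confidence interval from limma. All 10 intervals include 0. That of Elk3 is the narrowest, from -0.02 to 0.37, and that of Gata2 the widest, from -1.14 to 0.48.

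For Sox18 and Sox7 of the SoxF group the label means lay close together. Sox18, which acts in lymphatic and blood vessel differentiation, measured 9.93, 9.90 and 9.59 on W1 to W3 and 9.56, 9.84, 9.85 and 10 on K1 to K4. Its lowest and highest values were both on knockout-labelled arrays. The means were 9.81 ± 0.19 (SD, n = 3) and 9.81 ± 0.18 (SD, n = 4), with an interval for the difference of -0.32 to 0.33. Changes outside 80.3% to 126% of the wild-type-labelled level were therefore beyond the 95% interval, and smaller ones in either direction were not resolved. The sign of this near-zero difference turned without W3 (-0.10), K4 (-0.06), K2 or K3.

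Sox7 measured 7.99, 8.51 and 8.31 against 8.30, 8.65, 8 and 8.31, and both labels spanned almost the same range. Its difference was 0.05 (95% confidence interval -0.38 to 0.47; limma adjusted p = 0.997). It was 0.17 without W2 and 0.15 without K3, and negative without W1 (-0.10) or K2 (-0.07).

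Tal1 measured 5.70, 6.03 and 6.23 on W1 to W3 and 6.03, 6.38, 6.03 and 6.01 on K1 to K4. K2 stood apart, since the other 3 knockout-labelled arrays lay within 6.01 to 6.03. The difference was 0.13 (95% confidence interval -0.24 to 0.49; limma adjusted p = 0.972), and it was 0.04 without K2, -0.02 without W1 and 0.25 without W3.

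Gata2 varied more between arrays than the other 9 factors. It measured 9.42, 9.33 and 8.22 on W1 to W3 and 8.23, 8.64, 9.21 and 8.55 on K1 to K4. The highest and the lowest array were both labelled wild-type, and K3 lay close to W1 and W2. Its range of 1.20 over 7 arrays was matched or passed by 9.20% of tested genes, whose median range was 0.60. The label means were 8.99 ± 0.67 (SD, n = 3) and 8.66 ± 0.41 (SD, n = 4), a difference of -0.33 (SE 0.34, 95% confidence interval -1.14 to 0.48; limma adjusted p = 0.971), which is smaller than the SD within either label. Single arrays moved it from -0.12 without W1, -0.16 without W2 and -0.19 without K1 to -0.52 without K3 and -0.72 without W3.

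Gata6 measured 7.62, 7.48 and 7.23 against 7.43, 7.24, 7.46 and 7.45. As for Gata2, the highest and the lowest array were both labelled wild-type. Its difference was -0.05 (95% confidence interval -0.32 to 0.23; limma adjusted p = 0.988). It was -0.16 without W3 and -0.03 without W2, and the sign turned without W1 (0.04), without K2, and when arrays were centred on their medians.

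**Figure D3:**
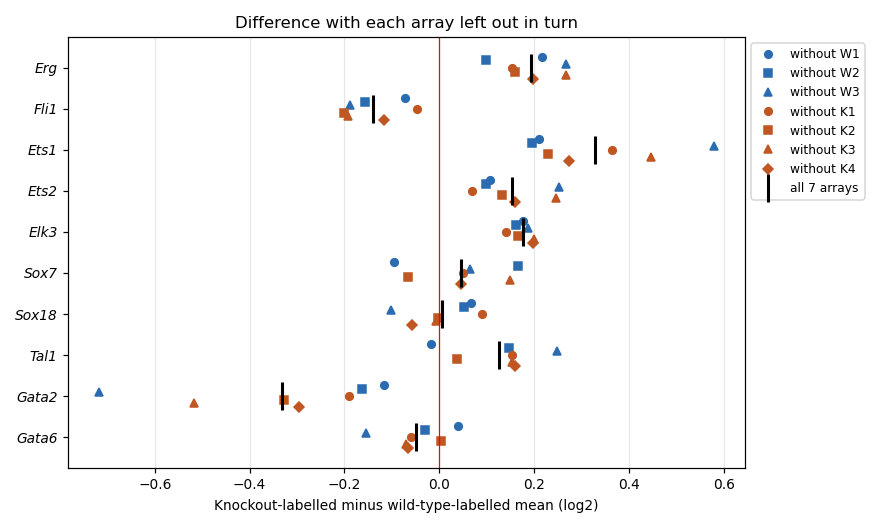
Difference of each factor (knockout-labelled minus wild-type-labelled mean, log2) with all 7 arrays (black bars) and with each array left out (blue marks, a wild-type-labelled array left out, orange marks, a knockout-labelled one). Elk3 stays between 0.14 and 0.20, Gata2 moves between -0.72 and -0.12, and Sox7, Sox18, Tal1 and Gata6 cross 0.

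An order of arrays that cut across the labels recurred among the factors. W1, W2 and K3 were the 3 lowest for Erg, Ets1 and Ets2 and the 3 highest for Gata2 and Gata6. This held for 5 of the 10 factors in either direction, and for 12.0% of all tested genes (6.17% lowest, 5.80% highest). These 3 arrays were singled out after their values were seen, so the counts are a description and no test was made. Fli1, Elk3, Sox7, Sox18 and Tal1 did not have this order. Sash1 itself did, with W1, W2 and K3 as its 3 highest arrays, as had 5.80% of all tested genes. Its probe set may lie outside the part of the gene that was removed. Whether the labels of W3 and K3 hold was not tested.

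Leaving out both arrays numbered 3, a fit added with earlier results known, leaves W1 and W2 against K1, K2 and K4, so the labels then divide the arrays as this order does. There Gata2 differed by -0.90, Ets1 by 0.70, Ets2 by 0.35 and Erg by 0.34. Each difference is larger than over 7 arrays, as it had to be. For these genes W1, W2 and K3 lie at one end, so leaving out W3 and K3 removes the arrays that crossed the labels. None of these genes passed in limma (adjusted p of 0.256 for Gata2 and 0.292 for Ets1).

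W1, W2 and K3 also had the 3 highest means of the immediate early and dissociation stress genes, a list of transcripts such as Fos, Egr1 and Atf3 that cells raise within minutes of handling or stimulation. The list of 18 genes averaged 8.87, 8.64 and 7.31 on W1 to W3 and 8.34, 7.26, 9.14 and 6.75 on K1 to K4. For 14 of its 18 genes these 3 arrays were the 3 highest. Its part in the values of Erg, Ets1, Ets2, Gata2 and Gata6 was not tested.

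**Figure D4:**
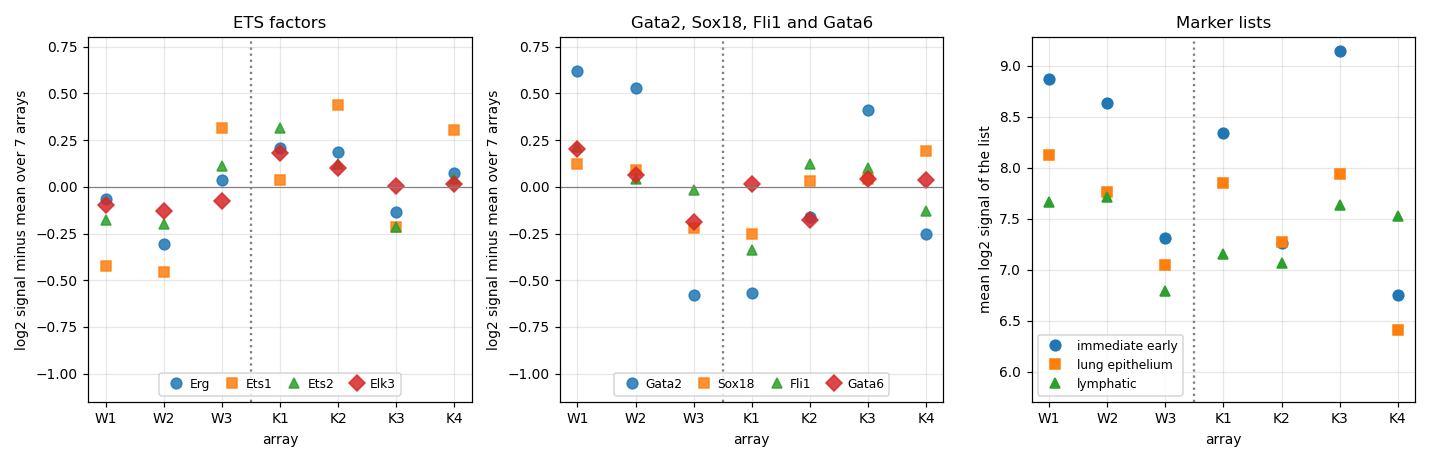
The first 2 panels plot the log2 signal of 8 factors on each array minus the gene's mean over 7 arrays, and the last panel the mean log2 signal of 3 marker lists (dotted line, border between arrays labelled wild-type and knockout). Erg, Ets1 and Ets2 are lowest and Gata2 highest on W1, W2 and K3, where the immediate early list reads 8.64 to 9.14. On K1 that list reads 8.34, though Erg and Ets2 are highest and Gata2 near its lowest there. On W3, K2 and K4 it reads 6.75 to 7.31.

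These 3 arrays had the 3 highest means for 6 of the 11 cell type and state lists, namely the immediate early, lymphatic, venous, leukocyte, platelet and mesothelial genes. Lymphatic endothelium is a cell type in which Gata2 and Sox18 are active. Their 6 measured genes averaged 7.66, 7.71 and 6.79 on W1 to W3 and 7.15, 7.07, 7.63 and 7.53 on K1 to K4. For the lymphatic genes Lyve1, Mmrn1 and Reln, 3 of 6, W1, W2 and K3 were again the 3 highest. The master regulator Prox1 ranged only from 5.50 to 5.88. Arterial genes averaged 7.75 to 7.95 on the wild-type-labelled and 7.91 to 8.03 on the knockout-labelled arrays, without that order. Venous genes averaged 6.14, 6.07 and 5.82 on W1 to W3 and 5.85, 5.93, 6.24 and 6.03 on K1 to K4, and 2 of the 4 that were tested had W1, W2 and K3 highest. The part of any of these lists in the Gata2 values was not tested.

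Several factors are also expressed outside endothelium, so markers of other cells were read on the same arrays. Lung epithelial genes (15 measured, Epcam between 4.06 and 5.31, Sftpc between 10.20 and 12) averaged 8.13, 7.76 and 7.05 on W1 to W3. On K1 to K4 they averaged 7.85, 7.27, 7.94 and 6.40. Gata6 measured 7.62, 7.48 and 7.23 on W1 to W3 and 7.43, 7.24, 7.46 and 7.45 on K1 to K4. Fibroblast and mural genes (13 measured) averaged 6.68 to 7.08 on the wild-type-labelled and 6.58 to 7.30 on the knockout-labelled arrays. Neither the epithelial list nor this one had W1, W2 and K3 highest. Mesothelial genes (6 measured) did have that order, with means of 5.52, 6.07 and 5.77 on W1, W2 and K3 and 5.07 to 5.35 on the others. Leukocyte genes (14 measured, Ptprc between 3.51 and 4.85, Lyz1 between 4.02 and 11.09) averaged 6.26, 6.08 and 6.05 on W1, W2 and K3. They averaged 5.01 to 5.92 on the others, and S100a8 lay between 8.92 and 10.71. The mean of 5.01 was on K4, where Lyz1 was at its lowest, 4.02, and the epithelial list was lowest as well. Of the 14 genes 5 (35.7%, against 12.0% of all in either direction) had W1, W2 and K3 highest.

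Of the blood lineages in which Tal1 and Gata2 act, platelet genes (5 of 8 listed were measured) averaged 5.76, 5.45 and 5.70 on W1, W2 and K3, the 3 highest, and 4.47 to 5.18 on the others. For 3 of the 5, W1, W2 and K3 were highest, as they were for Gata2. Erythroid genes (4 of 11 measured, with no globin gene among them) averaged 3.98 to 4.24 and 4.06 to 4.31. Of the mast cell genes, all 7 were on the array and 3 passed the filter, and Kit, which fetal lung capillaries also express, lay between 8.97 and 10.10, while Cpa3 lay between 3.12 and 4.09 and Ms4a2 at 3.46 to 3.47. None of the 11 cell type and state lists had a gene past an adjusted p of 0.05 in limma. An unadjusted p under 0.05 was found for 2 genes, Tcf21, whose labels did not overlap, and Upk3b. Higher and lower means on the knockout-labelled arrays numbered 11 and 2 for fibroblast and mural genes. Epithelial genes had 3 and 12, leukocyte 2 and 12, immediate early 2 and 16 and platelet 0 and 5. Lymphatic genes had 1 and 5, mesothelial 3 and 3, arterial 4 and 3 and venous 2 and 2. Erythroid genes had 3 and 1 and mast cell genes 3 and 0, and 53.9% of all tested genes were higher. The share of these cells in the values of the factors was not tested.

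Other ETS genes were compared between labels from a list of 21, of which 20 were on the array and 18 passed the filter. Of these 0 passed the adjusted threshold in limma and 0 had an unadjusted p under 0.05, 6 had higher and 12 lower means on the knockout-labelled arrays, and their median difference was -0.10. Erf, an ETS repressor regulated by ERK, differed by -0.27 (95% confidence interval -0.70 to 0.17), by -0.10 without W2 and by -0.47 without W3. Elf4 differed by -0.27 (-0.63 to 0.09) and by -0.17 without W1. The epithelial members Elf5 and Ehf differed by -0.53 (-1.12 to 0.07) and -0.16 (-0.37 to 0.04). Elf5 and Ehf were dim, at 3.14 to 4.59 and 3.42 to 3.73, and fell out of the fit without the dimmest 50% of genes. Elf5 had its lowest value, 3.14, on K4, which was also lowest for the epithelial list, and its difference was -0.34 without K4 and -0.34 without W1. Etv6, a repressor needed in vessel and blood development, differed by -0.17, was at -0.35 without W3 and turned to 0.04 without W1. Spi1, the leukocyte ETS factor, differed by -0.09 with K4 at 4.42, and by 0.14 without that array.

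The relatives of the SoxF and GATA members numbered 7, and 0 passed in limma, adjusted or at an unadjusted p under 0.05, with 4 higher and 3 lower means and a median of 0.03. Sox17, the arterial SoxF factor, measured 9.52, 9.48 and 10.01 on W1 to W3 and 10.07, 9.88, 9.59 and 9.56 on K1 to K4. W3 was near the highest knockout-labelled value, and the difference of 0.11 (95% confidence interval -0.33 to 0.54) was 0.01 without K1 or W2 and 0.28 without W3. The GATA cofactor genes Zfpm1 and Zfpm2 differed by -0.16 (-0.42 to 0.11) and 0.14 (-0.07 to 0.36), and the erythroid factor gene Gata1, near the filter's floor at 2.82 to 3.23, by -0.11 (-0.37 to 0.16). Without W1 Zfpm1 was at -0.07 and Zfpm2 at 0.07, without W2 Zfpm2 was at 0.22, without K4 Zfpm1 was at -0.10, and without K2 Gata1 was at -0.02.

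The partners of Tal1, 7 genes, had 4 higher and 3 lower means with a median difference of 0.02, and 0 passed the adjusted threshold. Tcf3, which encodes the E proteins that pair with Tal1, measured 7.54, 7.57 and 7.76 against 7.92, 7.86, 7.72 and 8.04. Only K3 lay below a wild-type-labelled array, and the difference was 0.26 (SE 0.11, 95% confidence interval 0.01 to 0.51). Its unadjusted p of 0.0436 became 0.971 after adjustment over all genes in limma, and W1, W2 and K3 were its 3 lowest arrays. Lyl1, the Tal1 paralog, measured 5.66, 5.80 and 6.90 against 6.96, 6.95, 6.31 and 6.90. It was at 6.90 or above on W3, K1, K2 and K4, and lower on W1, W2 and K3. With Ldb1, 3 of the 7 partner genes (42.9%, against 12.0% of all in either direction) had these 3 arrays lowest.

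Lyl1 differed by 0.66 (SE 0.32, 95% confidence interval -0.10 to 1.42; limma adjusted p = 0.971), by 0.43 without W1 and by 1.05 without W3. It differed by 1.21 without both arrays numbered 3 (limma adjusted p = 0.244). That increase had to follow, since W3 and K3 were the arrays that crossed the labels for Lyl1. The bridging cofactor gene Ldb1 shared this order of arrays and differed by 0.14 (-0.23 to 0.51), by 0.05 without W1, 0.07 without W2 and 0.32 without W3. Tcf4, another E protein gene, differed by -0.16 (-0.42 to 0.10) and by -0.08 without K3, and Lmo2, the LIM adaptor of the complex, by -0.03 (-0.53 to 0.47), with a sign that turned without K3 (0.12), K1 or W3.

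Endothelial genes with described ETS, SoxF or GATA sites were listed to set beside the factors. Of 27 listed, 26 were tested, 0 passed in limma, adjusted or at an unadjusted p under 0.05, 11 had higher and 14 lower means, Esam had equal means, and the median difference was -0.03, with single genes from -0.39 to 0.39. The VE-cadherin gene Cdh5 differed by -0.05 (95% confidence interval -0.23 to 0.13), Pecam1 by 0.00 (-0.18 to 0.19), the angiopoietin receptor gene Tek by 0.05 (-0.28 to 0.37) and the VEGF receptor gene Kdr by -0.05 (-0.52 to 0.43). The signs of Tek and Kdr turned without K3 (-0.03 and 0.12), and that of Cdh5 when arrays were centred on their medians.

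The 4 of smallest unadjusted p were Notch4 (0.18, -0.08 to 0.44), the decoy VEGF receptor gene Flt1 (-0.15, -0.38 to 0.07), the peptide ligand gene Apln (-0.39, -1.01 to 0.24) and the secreted vessel factor gene Egfl7 (-0.14, -0.36 to 0.09), and each had an adjusted p of 0.971. Notch4 differed by 0.07 without W2, and Egfl7 by -0.07 without W3. Apln differed by -0.23 without K1, -0.25 without W1 and -0.62 without W3. Over the whole list 4 of 26 genes, or 15.4%, had the order of arrays described for Erg and Gata2, with Kdr and Arhgef15 lowest and Eng and Vwf highest on W1, W2 and K3, against 12.0% of all tested genes.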

How the data were processed

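RNA of sorted E18.5 lung endothelial cells was amplified with a whole-transcriptome kit and hybridised to 1-colour Affymetrix arrays, 1 for each of 7 samples, per the labels' protocols. The authors deposited log2 values per probe set, made with RMA in Affymetrix Expression Console 1.1, per the submitters' processing notes. That they are log2 values was inferred from their range. RMA has a quantile step that brings arrays toward one distribution, so a shift shared by most genes can be lost. The deposited arrays were still not fully alike, with medians over all probe sets from 3.86 (K2) to 4.03 (W3). After quantile normalization of these values 62.1% of tested genes were higher on the knockout-labelled arrays, against 53.9% without it. No reads lie behind array values, and the number of arrays limits precision.

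Of 41345 probe sets, 23521 had exactly 1 gene symbol in the platform annotation, 1814 had several, and the rest none listed. Of the former, 99.2% had a gene identifier in the RefSeq table. The brightest probe set over all 7 arrays stood for a gene, and the dimmest 25% of 22180 genes (mean below 2.98) were left out. Labels were compared over all genes tested with limma 3.58.1 (lmFit, eBayes) in R 4.3.3, fitting the genotype label alone, with Benjamini-Hochberg adjustment. In data simulated for this comparison over 16635 genes, 20.9%, 74.6% and 97.0% of genes shifted by 0.5, 1 and 2 log2 units were called, with 10 false calls. The simulated noise was drawn separately for each gene, without an order of arrays shared between genes. These rates need not hold for the arrays themselves, where such an order recurred.

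The 10 genes and all lists were chosen with earlier results of these data known. Named genes were the 10 members, in each of the 4 lists of related genes the 4 of smallest unadjusted p, and Sox17, Lmo2, Spi1, Etv6, Cdh5, Tek, Kdr, Pecam1 and Sash1. The rule also allowed the first 2 genes and the gene of smallest p of each cell list, of which some are named. Mmrn1, Reln, Ms4a2, Egr1, Atf3, Arhgef15, Eng, Vwf, Esam, Sftpc and S100a8 were named after their values were seen. The alternatives were other dim-gene filters, quantile normalization, median centring, array weights, a robust fit with an intensity trend, the mean over a gene's probe sets, the replicate number as a block, an adjusted p under 0.1, and each array left out. Arrays that share a number did not deviate together, with correlations of -0.18, -0.20 and -0.55 for numbers 1, 2 and 3, so the block was not used in the main comparison. Between arrays of different numbers the correlations ran from -0.18 (W1 and K2) to 0.49 (W1 and K3).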

Additional observations from a re-analysis of the deposited data

Results flagged for a closer look

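Of 34 genes described with a difference, 5 had a knockout-labelled array far from the other 3, where chance flags about 1 gene in 20. The wild-type-labelled group is too small for this check. Tal1 was at 6.38 on knockout 2 and at 6.01 to 6.03 on the others. Gata6 was at 7.24 on the same array and at 7.43 to 7.46 on the others. Gata1 was at 2.82 on knockout 2 and at 3.18 on each of the others, close to the dim-gene limit. Lyl1 was at 6.31 on knockout 3 against 6.90 to 6.96, and Spi1 at 4.42 on knockout 4 against 5.29 to 5.40. The cause was not tested for any of them.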

How the results depend on the processing

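No alternative brought a gene past an adjusted p of 0.05 in limma, nor did a threshold of 0.1. Over 17 alternatives for each of the 10 factors, 156 of 170 values kept their direction and 14 turned, with 0 past 0.05 and a smallest adjusted p of 0.256 (Gata2, both arrays numbered 3 left out, a fit added with earlier results known). At an unadjusted p under 0.05 there were 0 to 4 factors over these alternatives. The count of genes at an unadjusted p under 0.05, 556, was 1310 with array weights, 1779 without both arrays numbered 3, and 295 (without wild-type 2) to 1314 (without wild-type 3) with 1 array left out. The replicate number as a fixed block gave 225 and as a random block 367, and in these blocked fits no call changed, while Sox18 turned to -0.057 and Spi1 to 0.143 (fixed) and Pecam1 to -0.0044 (random).

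Factors with lower means were 5 with array weights, where Sox7 was -0.063 and Sox18 -0.073, 4 without both arrays numbered 3, and 3 or 4 with 1 array left out. The factors' median difference, 0.09, was 0.02 without knockout 2, 0.152 without knockout 3 and 0.191 without both arrays numbered 3. In the last of these fits Gata2 was -0.902, Ets1 0.698, Lyl1 1.21, Kdr 0.22 and Sash1 -0.665. For these genes it left out the arrays that crossed the labels. Sox18 was -0.115 there, Lmo2 0.21 and Tek -0.005. Median centring turned Gata6 (0.0092), Lmo2 (0.0275), Cdh5 (0.0058) and Kdr (0.01), and quantile normalization turned Pecam1 (-0.0214). With 1 array left out the ranges that crossed 0 were -0.095 to 0.165 for Sox7, -0.103 to 0.09 for Sox18, -0.0175 to 0.248 for Tal1, -0.155 to 0.04 for Gata6, -0.183 to 0.12 for Lmo2, -0.185 to 0.143 for Spi1, -0.353 to 0.0375 for Etv6, -0.0333 to 0.157 for Tek, -0.157 to 0.12 for Kdr and -0.0267 to 0.0333 for Pecam1. Beyond these values the cause was not tested. The 95% intervals of the 10 factors reached 0.19 to 0.81 log2 units to either side, and differences within them were not resolved.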
